A study of Mus musculus with 4 samples.

Results

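Complement is a set of secreted and membrane proteins that tag material for removal, and 9 of its genes were followed here through single microglia of mice with and without the microglial receptor gene Trem2, on a control diet or on cuprizone. The 9 genes are C1qa, C1qb, C1qc, C4b, C3, Cfp, Cfb, C3ar1 and C5ar1, picked by symbol from the 12800 genes of the deposited table. Of these, 8 had at least 50 tagged molecules over the cells used, and Cfb did not. The authors kept 5 of the 9 for their clustering, namely the 3 C1q chains, C4b and C5ar1.

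In the classical pathway, the C1q protein, built from A, B and C chains, binds a target and starts cleavage of C4 and then C3. The alternative pathway amplifies C3 cleavage with factor B, and properdin stabilises its convertase. Fragments released from C3 and C5 act on the receptors C3ar1 and C5ar1. In the brain, microglia are the main source of C1q, and complement is known for its part in the removal of synapses by microglia.

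There were 4 libraries, 1 for each group, and each pooled sorted cells from hemibrains of 2 male mice aged 12 to 14 months. The groups were Trem2 +/+ mice on a control diet, and Trem2 +/+, Trem2 +/- and Trem2 -/- mice on a diet with 0.2% cuprizone, a chelator of copper under which oligodendrocytes die and myelin is lost. All 4 groups were on their diet for 12 weeks. The sort took live CD11b+ CD45low cells, 30000 for each hemibrain. With 1 library a group there is no replicate error: no test between groups was possible, and every interval below is a 95% interval of counting error only.

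Levels are given as CPM, the molecules (UMIs, counted at the 3′ end) of a gene per 1000000 UMIs of the same cells. Unless another set is named, they come from the cells of 6 of the authors' 8 clusters (01, 02, 04, 05, 06 and 08), called the pooled cells. These were 479, 663, 695 and 753 cells in the order control diet, wild type on cuprizone, heterozygote and knockout, with median depths of 4717, 6588, 6849 and 6061 UMIs a cell and 3638474 to 6552603 UMIs a library. All 13 microglia markers of a fixed list were present, with a summed level of 26634 to 32701 CPM. Cluster 07, which carried macrophage markers of the brain's borders at a summed 3379 CPM against 380 CPM in the pooled cells, is described apart. Cluster 03, 66 cells with neutrophil markers at 105076 CPM and choroid plexus markers at 70921 CPM, stays unnamed. Trem2 itself stood at 3132, 2939, 1763 and 520 CPM in that order of libraries. The deleted part of Trem2 is not given in the sources used here, so these 3′ molecules check the order of the genotypes only. Of 3015 cell barcodes, 8 occurred in more than 1 library.

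The C1q chains lie side by side on the minus strand of chromosome 4 (GRCm38): C1qa (ENSMUSG00000036887) at chr4:136895917-136898803, C1qc (ENSMUSG00000036896) at chr4:136889804-136893065 and C1qb (ENSMUSG00000036905) at chr4:136880129-136886187. C3 (ENSMUSG00000024164) lies at chr17:57203970-57228136. The 250 bases before the start of C1qb and C3 are shown, C1qb as the chain whose window lies wholly before its start in both annotations used and C3 for its wide ratios between libraries. They come from RefSeq on GRCm38.p6, minus strand, 5′ to 3′, at chr4:136886201-136886450 and chr17:57228137-57228386. Capitals mark the motif matches described after them.
C1qb: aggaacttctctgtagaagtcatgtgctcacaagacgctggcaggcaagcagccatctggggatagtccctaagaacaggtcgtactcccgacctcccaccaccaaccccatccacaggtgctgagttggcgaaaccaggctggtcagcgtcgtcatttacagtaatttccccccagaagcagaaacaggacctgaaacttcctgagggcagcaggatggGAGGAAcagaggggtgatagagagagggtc
C3: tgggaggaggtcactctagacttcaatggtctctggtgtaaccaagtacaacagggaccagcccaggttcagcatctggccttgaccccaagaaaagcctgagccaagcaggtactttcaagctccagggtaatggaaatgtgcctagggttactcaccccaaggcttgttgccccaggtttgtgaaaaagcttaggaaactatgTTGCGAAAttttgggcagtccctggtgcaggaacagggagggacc

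C1qb held GAGGAA, the core of the motif of PU.1, an ETS factor of myeloid cells, 30 to 25 bases before the start. That core occurred on either strand in 23.3% of 32851 promoters of the same length, so a match is common. The RefSeq window of C1qc reaches into the gene as GENCODE places it, since the annotations differ in its start, and is not shown. In C3, TTGCGAAA at 45 to 38 bases before the start matched TTGCNNAA, a form of the C/EBP motif found in 9.56% of promoters. Other motifs searched on both strands were an interferon response element (in 2.98% of promoters), an NF-kappaB motif (in 1.21%) and TATAAA (12.4%). None of these occurred in the C1qb or C3 window. C3ar1 held TATAAA 235 to 230 bases before its start, and C5ar1 and Cfp held none of the 5 motifs. In all, 6 of the 9 genes had an entry in the promoter table. These matches describe letters in a window and no binding.

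C1q was abundant in every library and differed by less than 10% in each of the 4 comparisons made between libraries. The 3 chains together made up 3.14% of all UMIs on the control diet and 2.94%, 2.81% and 2.92% in wild type, heterozygote and knockout on cuprizone. C1qa, the A chain, stood at 10828, 10184, 9631 and 9953 CPM in that order. C1qb, the B chain, stood at 10993, 10115, 9582 and 10093 CPM, and C1qc, the C chain, at 9603, 9093, 8897 and 9153 CPM. The control diet library was highest and the heterozygote lowest for all 3 chains. The order of heterozygote and knockout turned when clusters were weighted equally, with log2 ratios of knockout to heterozygote of -0.09, -0.02 and -0.06 for C1qa, C1qb and C1qc in place of 0.05, 0.07 and 0.04. Within clusters the knockout's C1q sum lay below the heterozygote's in 4 of 5, each with an interval below 1 and the lowest ratio at 0.952. In the remaining cluster the knockout's sum lay above the heterozygote's, with a ratio of 1.08 and an interval above 1. For the summed chains, the intervals of knockout (29069 to 29331 CPM) and wild type on cuprizone (29256 to 29526 CPM) overlapped, and the others did not.

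Between wild type on cuprizone and on the control diet, the ratio was 0.941 (0.929 to 0.952) for C1qa, 0.920 (0.909 to 0.932) for C1qb and 0.947 (0.934 to 0.960) for C1qc. The direction of so small a difference turned with the scaling for C1qa and C1qc: after TMM scaling their log2 ratios were 0.03 and 0.04. That of C1qb did not turn but came to -0.002. The knockout against wild type on cuprizone gave 0.977 (0.967 to 0.988) for C1qa, with 0.998 and 1.01 for C1qb and C1qc. Ratios of the heterozygote to wild type were 0.946, 0.947 and 0.979. No C1q chain came near 1.5-fold.

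**Figure D1:**
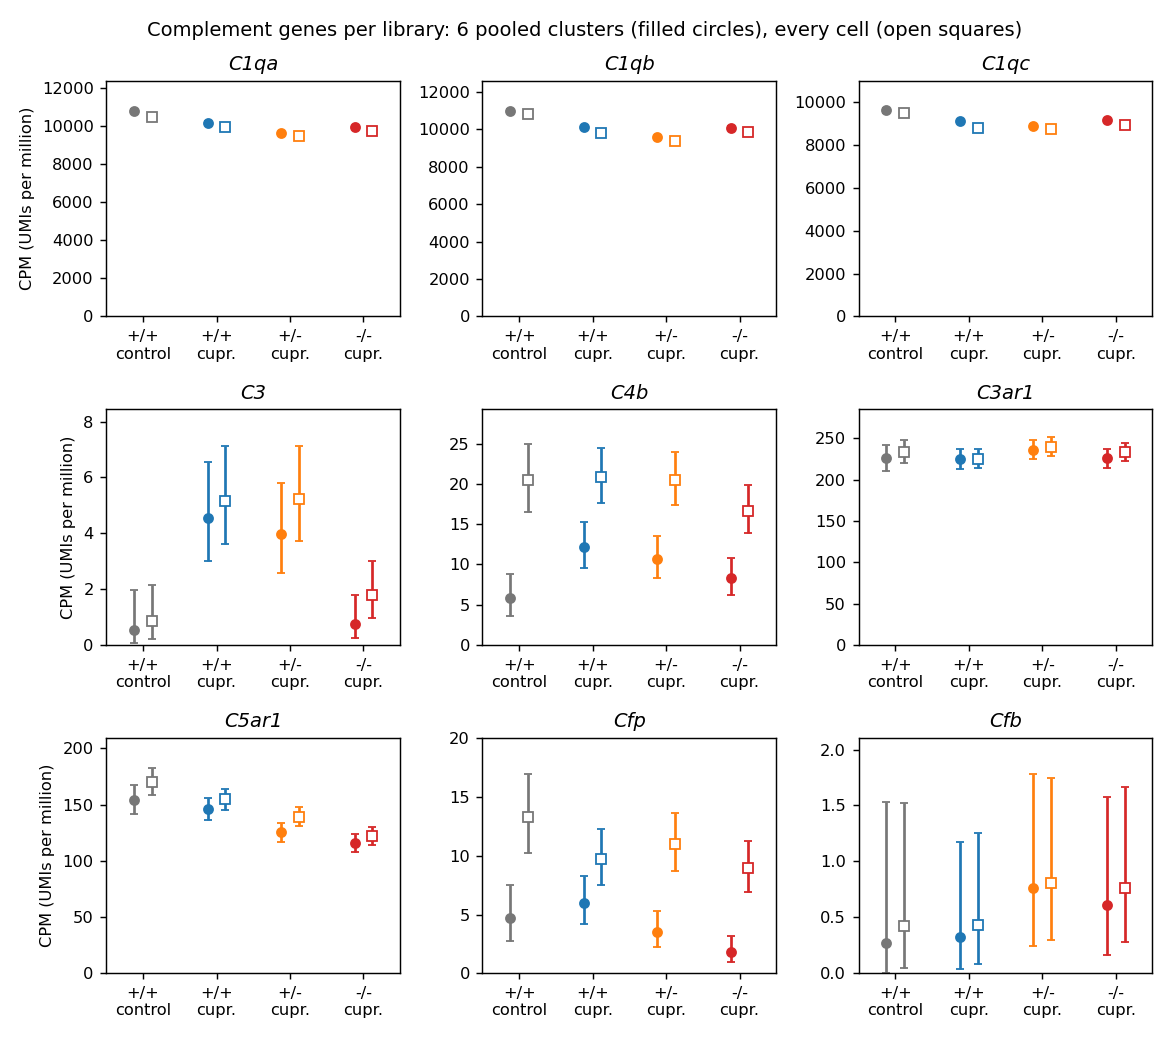
Level of each complement gene in the 4 libraries, in CPM, with 95% counting intervals. Filled circles are the 6 pooled clusters and open squares every deposited cell. Each panel has its own axis from 0. The C1q chains and C3ar1 are level across libraries, C5ar1 goes from 154 to 116 CPM, and C3 is near 0 on the control diet and in the knockout.

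The plot of levels by library sets the even panels of C1q and C3ar1 beside the uneven ones of C3, C4b and Cfp, whose intervals are wide because they rest on few molecules. Within clusters, the C1q sum was lower in the knockout than in wild type on cuprizone in 5 of 5 clusters with at least 20 cells on each side, with ratios of 0.902 to 0.988 and an interval below 1 in 4 of them. The pooled ratio of the sum, 0.994, was closer to 1 than each of these 5. Cluster 08 made up 23.2% of pooled cells in the knockout and 11.5% in wild type on cuprizone, with a C1q sum of 31736 and 33722 CPM there. Cluster 04, lowest in the C1q sum in wild type on cuprizone, made up 1.73% in the knockout and 18.4% in that wild type. For cluster 02 the shares were 28.3% and 22.0%. The part of these cluster sizes in the pooled ratio was not tested. On the control diet against cuprizone in wild type, the sum was lower on cuprizone in 4 of 4 clusters (0.943 to 0.979). Over the pooled cells its log2 ratio there was -0.10. The median over all genes with at least 50 UMIs was -0.11, so the C1q sum moved about as the median gene did.

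Among clusters of at least 20 cells in the pool, cluster 06 had the highest C1q sum in all 4 libraries, at 36021, 33965, 34334 and 33343 CPM. The lowest was cluster 02 on the control diet and in the heterozygote (29333 and 26148 CPM), cluster 04 in wild type on cuprizone (27265 CPM) and cluster 01 in the knockout (26563 CPM). Since C1q genes entered the clustering, these levels describe the clusters and test nothing. Depth moved with the order in part: cells of cluster 06 had a median of 3541 UMIs and those of cluster 02 a median of 16984.5, but cluster 01, with 3387, was not high. Its part in the order was not tested. In cluster 07 the C1q sum was 0.922 to 0.990 of that in the pooled cells. In cluster 03 it was 2163 CPM on the control diet and 10282 CPM in the knockout, the level seen in cells led by markers of other cell types.

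Every pooled cell held C1qa when cells were thinned to 2915 UMIs each (2331 of 2331 cells), against 88.0% of 50 cells of cluster 03. A thinned cell held a mean of 33.2, 31.4, 30.5 and 30.6 C1qa UMIs in the 4 libraries. The spread between cells was wider than counting alone gives, with a variance of 2.52, 3.06, 3.47 and 2.47 times the mean. C1qa varied most in the heterozygote, from 2 to 82 UMIs a cell. Across cells of 1 library, C1qa and C1qb had a Pearson r of 0.485, 0.515, 0.541 and 0.481 over 410, 604, 644 and 673 cells. C1qa and C3ar1 stayed between -0.01 and 0.07. The cells of a library share its preparation and were set to the same depth.

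The balance between chains hardly moved. Of the UMIs of C1q in pooled cells, C1qa held 34.5%, 34.6%, 34.3% and 34.1% in the 4 libraries, C1qb 35.0%, 34.4%, 34.1% and 34.6%, and C1qc 30.6%, 30.9%, 31.7% and 31.3%. Between clusters of the control library the C1qa share ranged more widely, with 31.9% in cluster 02 and 36.6% in cluster 06.

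Over the 24 points given by 6 clusters and 4 libraries, C1qa and C1qb had r = 0.894 on the log2(CPM + 10) scale. Among 4627 other genes, Ctss, the protease cathepsin S, was most like C1qa (0.903) and C1qb (0.877). Itm2b (0.886) and Laptm4a (0.858) followed for C1qa, and Gng10 (0.864) and Itm2b (0.842) for C1qb. For C1qc they were Slamf6 (0.839), Oard1 (0.838) and Aif1 (0.826), the last a microglial marker. Points of the same library share its preparation and points of the same cluster its cells' depth, and 3 of the 24 rest on fewer than 20 cells. Over the other 21 points the order changed in part: for C1qb, Ctss had 0.858, Gng10 0.808 and Itm2b 0.928, and for C1qc, Slamf6 had 0.612, Oard1 0.654 and Aif1 0.844, while Ctss (0.951) stayed ahead of Itm2b and Laptm4a for C1qa. The order of the named genes thus depended on those 3 points for C1qb and C1qc, but not for C1qa. The 21-point values are given only for genes already named from the 24 points.

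C4b encodes complement component C4, which is cleaved downstream of C1q. It lies on the minus strand at chr17:34728380-34743882 (ENSMUSG00000073418). Its molecules cannot be told apart with certainty from those of C4a, which was not analysed here: the last 500 bases of the transcripts of C4b and C4a were identical at 489 of 501 aligned positions. Its values are therefore uncertain as to the copy. In pooled cells C4b had 21, 75, 70 and 54 UMIs, or 5.77, 12.1, 10.7 and 8.29 CPM in the order control diet, wild type, heterozygote and knockout on cuprizone. The control diet library was lowest and wild type on cuprizone highest, and the intervals of those libraries did not overlap (3.57 to 8.82 against 9.55 to 15.2 CPM).

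The ratio of wild type on cuprizone to the control diet was 2.1 (1.28 to 3.60) for C4b. It was the 1 of 7 complement genes with at least 50 UMIs over both libraries that was at least 1.5-fold higher with an interval that excludes 1, and none of the 7 was lower. Over all genes, 2.59% were higher and 4.44% lower by the same rule, and the share among the 7 rests on C4b alone. The median log2 ratio was -0.08 over the 7 genes and -0.11 over all genes. Over every deposited cell the difference was not seen: C4b stood at 20.4 and 20.8 CPM, a log2 ratio of 0.03. In pooled cells the knockout was at 0.683 (0.472 to 0.981) of wild type on cuprizone, the heterozygote at 0.880 (0.626 to 1.23), and the knockout at 0.776 (0.534 to 1.12) of the heterozygote, none of them past 1.5-fold. The knockout did pass 1.5-fold against wild type without cluster 08 (log2 ratio -0.80), by the mean of per-cell CPM (-0.64) and with equal cluster weights (-0.79), and against the heterozygote with equal weights (-0.70). The set of every cell takes in cluster 07, which held 297 of the 527 C4b UMIs (56.4%) in 12.1% of the cells. Cluster 07 was 14.9% of cells on the control diet (1081975 of 4747730 UMIs). In wild type on cuprizone it was 10.6% (645093 of 7006408 UMIs). Within cluster 07, too, C4b was higher on cuprizone in wild type, as given below. The part of the size of cluster 07 in the values over every cell was not tested.

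Within the pool, most C4b UMIs of each library lay in the deep cells of cluster 02. Cluster 02 had 16, 42, 42 and 35 UMIs (11.0, 15.4, 16.0 and 10.00 CPM), and cluster 04 had 0, 25, 15 and 0. By CPM, among clusters of at least 20 cells, cluster 04 was highest only in wild type on cuprizone (17.8 CPM). In the heterozygote it lay below clusters 02, 05 and 08, and in the knockout cluster 08 was highest (11.8 CPM). Cluster 04 was 1.25%, 18.4%, 21.6% and 1.73% of pooled cells in the 4 libraries, so its size moved with the C4b level, and its part was not tested. In wild type, the cuprizone to control ratio was above 1 in 4 of 4 clusters (1.16 to 2.96), each with an interval that held 1. The summed level of 10 border macrophage markers in pooled cells was 369, 419, 426 and 304 CPM in the same order, with none at 0. Its part was not tested either. At equal depth, 1.22%, 2.48%, 2.33% and 1.19% of pooled cells held a C4b UMI (unthinned 3.76%, 7.54%, 7.34% and 5.58%), against 2 of 50 cells of cluster 03 (0.488% to 13.7%), an interval that holds or overlaps all of them.

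In cluster 07, with 85, 81, 87 and 114 cells, C4b stood at 69.3, 110, 110 and 55.7 CPM. Wild type and heterozygote on cuprizone were level (ratio 1.0, 0.720 to 1.39) and both lay above the other libraries. The knockout was at 0.506 (0.358 to 0.716) of wild type and 0.506 (0.362 to 0.706) of the heterozygote, and wild type on cuprizone was 1.59 times (1.13 to 2.23) the control diet. The border macrophage markers in those cells summed to 2885, 3637, 4218 and 3163 CPM in that order. They too were highest in wild type and heterozygote on cuprizone, but unlike C4b they were higher in the knockout than on the control diet, and their part was not tested. Against pooled cells of the same library, C4b in cluster 07 was 12.0, 9.06, 10.3 and 6.72 times as high. In the 18 cells of cluster 03 of the knockout it was 9.40 times (4.08 to 19.2) as high. On the control diet the cluster 03 ratio was 6.35 (0.154 to 39.5) from 7 cells. It was 0 in wild type and heterozygote on cuprizone (up to 1.68 and 2.23). At equal depth 21.6% of 343 cells of cluster 07 held a C4b UMI. As a description over the 24 points of the pool, Eid1 (0.724), Ddx17 (0.712) and Ube2q1 (0.687) were most like C4b. They had 0.738, 0.654 and 0.734 over the 21 points with at least 20 cells.

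**Figure D2:**
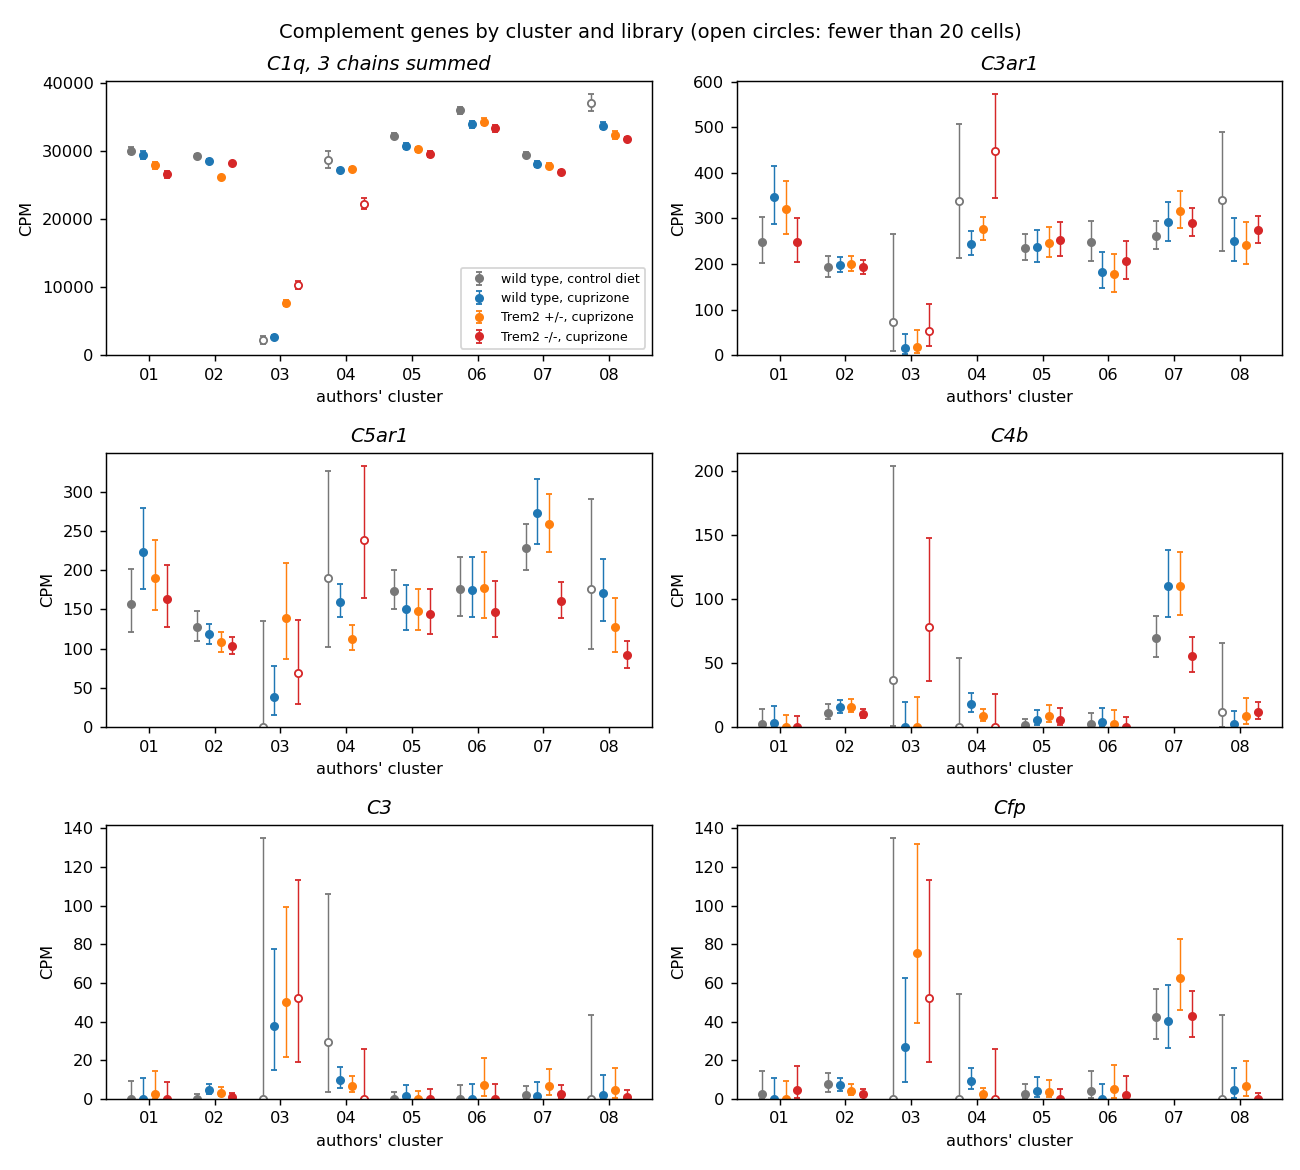
Levels in CPM by the authors' cluster (x axis) and library (colour), with 95% counting intervals. Open circles rest on fewer than 20 cells. C4b and Cfp are high in cluster 07. In cluster 03, C4b is high in the knockout, and Cfp and C3 in the 3 cuprizone libraries. C1q and C3ar1 are lowest in cluster 03.

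The plot by cluster shows that C4b, C3 and Cfp, the sparse genes of the set, were not spread evenly over the cells, while C1q and C3ar1 were found in every cluster and least in cluster 03. C3 encodes the central component, where all activation routes meet. It had 2, 28, 26 and 5 UMIs in pooled cells of the control diet, wild type, heterozygote and knockout libraries, or 0.550, 4.53, 3.97 and 0.768 CPM. No cell held more than 3, and 2, 26, 22 and 5 cells held any. Wild type and heterozygote on cuprizone were high, the control diet and the knockout low, and no interval of a high library overlapped one of a low library.

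The ratio of wild type on cuprizone to control was 8.25 (2.08 to 71.5) for C3, from 28 and 2 UMIs. In the knockout, C3 was 5.91-fold lower (2.25 to 19.6) than in wild type on cuprizone and 5.17-fold lower (1.95 to 17.2) than in the heterozygote. The heterozygote was at 0.875 (0.493 to 1.55) of wild type. None of the first 3 ratios reached 50 UMIs over both libraries. Over every deposited cell, with 4, 36, 39 and 14 UMIs, C3 did reach it in both knockout comparisons and was 2.88-fold (1.52 to 5.78) lower than wild type and 2.93-fold (1.56 to 5.84) lower than the heterozygote.

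C3 lay in few clusters. Of its 93 UMIs, cluster 04 held 28, cluster 02 held 24, cluster 03 held 21 and cluster 07 held 11. In cluster 04 the libraries had 2, 14, 12 and 0 UMIs in 6, 122, 150 and 13 cells, so both molecules of the control library came from its 6 cells there. Cluster 02 had 0, 12, 8 and 4 UMIs, and the knockout there was 3.85-fold lower (1.17 to 16.4) than wild type. With each cluster given equal weight, the log2 ratio of wild type on cuprizone to control turned to -0.72 because of those 6 cells. Cluster 04 was 1.25%, 18.4%, 21.6% and 1.73% of pooled cells in the 4 libraries, so its size moved with the pooled level of C3. The part of that size in the difference was not tested.

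At 2915 UMIs a cell, 1 of 410, 9 of 604, 6 of 644 and 0 of 673 pooled cells held a C3 UMI. The 0 allows a share of up to 0.446% of knockout cells with a UMI at that depth only, since at full depth 5 of 753 held one. The unthinned shares were 0.418%, 3.92%, 3.17% and 0.664%. In cluster 03, with its neutrophil and choroid plexus markers, it was 4 of 50 thinned cells (2.22% to 19.2%). Neutrophil markers in pooled cells summed to 0.825, 49.4, 1784 and 650 CPM. Both these markers and C3 were lowest on the control diet. The knockout lay above wild type on cuprizone in the markers and below it in C3. The part of neutrophil molecules in the C3 level was not tested. In the control library 8 of the 10 neutrophil markers were at 0.

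Cfp encodes properdin and lies on the minus strand at chrX:20925454-20931555 (ENSMUSG00000001128). It had 17, 37, 23 and 12 UMIs in pooled cells, or 4.67, 5.99, 3.51 and 1.84 CPM. The knockout was lowest, and its interval (0.952 to 3.22 CPM) did not overlap that of wild type on cuprizone (4.22 to 8.26 CPM). It was 3.25-fold lower than wild type (ratio 0.307, 0.146 to 0.603) from 49 UMIs, 1 under the minimum. The heterozygote to wild type ratio was 0.586 (0.332 to 1.01) and wild type on cuprizone to control 1.28 (0.704 to 2.43). In cluster 02, where most pooled Cfp lay, the libraries had 11, 19, 11 and 9 UMIs.

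Over every cell the Cfp difference was not seen, with 13.3, 9.71, 11.0 and 8.92 CPM and a knockout to wild type ratio of 0.919 (0.649 to 1.30). Cluster 07 held 171 of 283 Cfp UMIs (60.4%) and stood at 42.5, 40.3, 62.4 and 42.6 CPM, where knockout and wild type on cuprizone had a ratio of 1.06 (0.648 to 1.76). Cluster 03 held another 23. At equal depth 1.71%, 1.16%, 0.621% and 0.446% of pooled cells had a Cfp UMI, against 5 of 50 cells of cluster 03 (3.33% to 21.8%; unthinned 2.92%, 3.62%, 2.73% and 1.33%).

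Cfb encodes factor B, the alternative pathway's protease, and lies at chr17:34856374-34862518 on the minus strand (ENSMUSG00000090231). It had 1, 2, 5 and 4 UMIs in pooled cells, so no ratio could be measured. Its molecules are also uncertain, since 79.5% of its exonic bases are shared with the gene model Gm20547, which was not analysed here.

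C3ar1, the receptor of the C3a fragment, is at chr6:122847138-122856161 on the minus strand (ENSMUSG00000040552). It stood at 226, 224, 236 and 226 CPM, and all 4 intervals overlapped. Its ratios were 0.993 (0.911 to 1.08) for cuprizone in wild type, 1.0 (0.933 to 1.08) for knockout to wild type and 1.05 (0.978 to 1.13) for heterozygote to wild type. These intervals leave out a difference of 1.5-fold between these libraries. After TMM scaling the first became a log2 ratio of 0.11. At equal depth 45.1%, 45.5%, 48.1% and 49% of pooled cells held a C3ar1 UMI, against 8% in cluster 03 (unthinned 70.4%, 72.7%, 75.3% and 74.1%).

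Between clusters C3ar1 differed more. Of clusters with at least 20 cells in a library, cluster 01 was highest in 3 libraries, at 249 CPM on the control diet and 347 and 320 CPM in wild type and heterozygote on cuprizone. In the knockout it stood at 249 CPM and cluster 08 was highest, at 275 CPM. In cluster 01 the cuprizone to control ratio was 1.39 (1.06 to 1.84) and the knockout to wild type ratio 0.719 (0.547 to 0.943). In cluster 06 the order was other: 248 CPM on the control diet, 183 in wild type on cuprizone, 177 in the heterozygote and 206 in the knockout. H2-T22 (0.778), Sqstm1 (0.705) and Trappc6b (0.677) were most like C3ar1 over the 24 points, and had 0.505, 0.621 and 0.631 over the 21 points with at least 20 cells.

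C5ar1, the receptor of the C5a fragment, is at chr7:16246743-16259540 on the minus strand (ENSMUSG00000049130). It stood at 154, 146, 125 and 116 CPM in control diet, wild type, heterozygote and knockout. Heterozygote and knockout lay below both wild types. The intervals of heterozygote (117 to 134 CPM) and knockout (108 to 124 CPM) overlapped, as did those of both wild types. The knockout was at 0.793 (0.719 to 0.875) of wild type and the heterozygote at 0.859 (0.780 to 0.945). Neither reached 1.5-fold. Knockout to heterozygote was 0.924 (0.836 to 1.02), a log2 ratio of -0.11 that turned to 0.04 with clusters weighted equally.

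Within clusters, C5ar1 was lower in the knockout than in wild type on cuprizone in 5 of 5, with ratios of 0.534 to 0.961. The lowest was cluster 08, with 171 CPM in wild type, 127 in the heterozygote and 91.4 in the knockout, and it was the 1 with an interval below 1 (0.397 to 0.720). With clusters weighted equally, the log2 ratio of knockout to wild type was -0.17 in place of -0.33, since cluster 04 went the other way (160 and 238 CPM, with 13 cells in the knockout). In cluster 07 it was 228, 273, 259 and 161 CPM, a knockout to wild type ratio of 0.589 (0.478 to 0.726). At equal depth 34.6%, 31.3%, 27.6% and 28.7% of pooled cells held a C5ar1 UMI, and 20% of cluster 03, whose own interval of 10.0% to 33.7% overlapped theirs (unthinned 56.4%, 59.6%, 52.9% and 51.0%). Most like C5ar1 over the 24 points were Rraga (0.786), G3bp1 (0.780) and Tcf3 (0.751). They had 0.775, 0.713 and 0.721 over the 21 points with at least 20 cells.

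**Figure D3:**
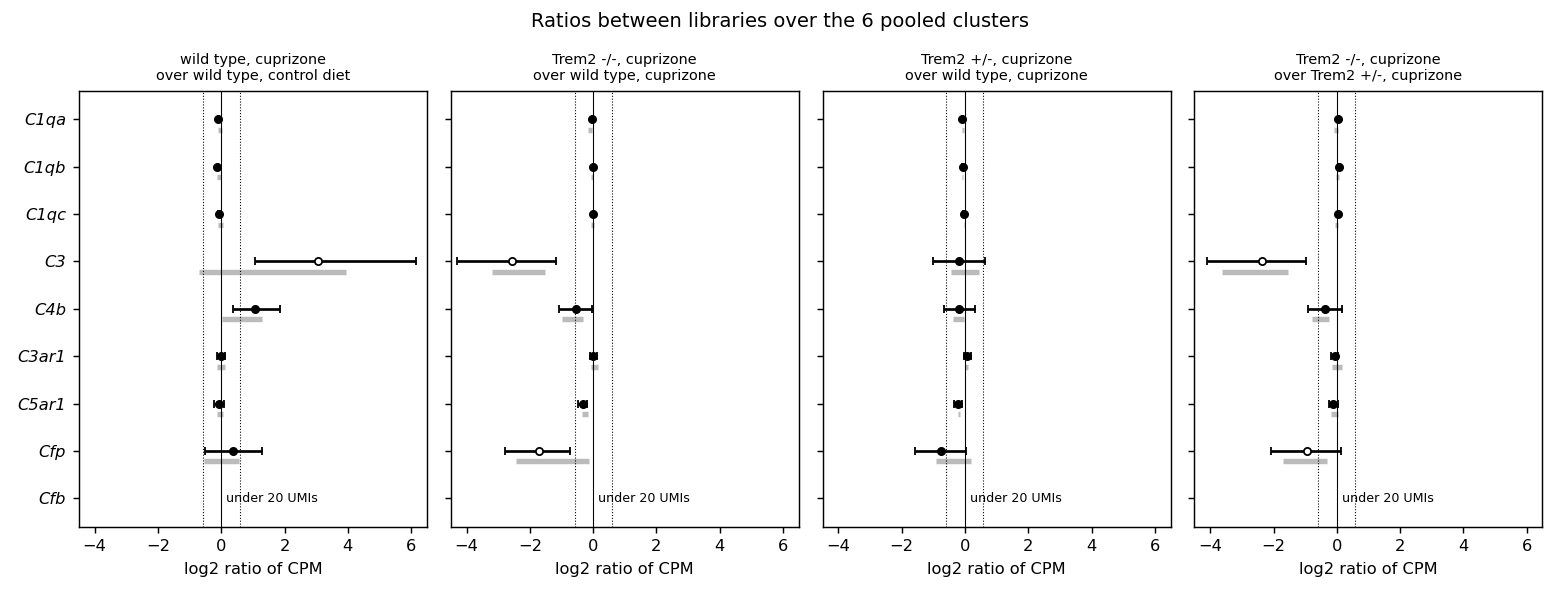
Log2 ratios of CPM over the 6 pooled clusters in the 4 comparisons, with 95% counting intervals; open circles rest on fewer than 50 UMIs, and dotted lines mark 1.5-fold. Grey bars give the range over the alternative settings. C1q and C3ar1 lie near 0 throughout, C3 far to the right for cuprizone and to the left in both knockout comparisons.

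The plot of ratios puts the 4 comparisons side by side, and they share libraries: 3 hold wild type on cuprizone, 2 the heterozygote and 2 the knockout, so their values are not independent. For knockout against wild type, 0 of 6 complement genes with enough UMIs were higher and 0 lower by the 1.5-fold rule, where 1.64% and 3.86% of all genes were. For heterozygote against wild type it was 0 and 0 of 8, with 1.32% and 1.17% of all genes. For knockout against heterozygote it was 0 and 0 of 6, with 1.3% and 3.64% of all genes. The median log2 ratios of the complement genes were -0.02, -0.13 and -0.01, and those of all genes -0.00, -0.01 and 0.01. C3 and Cfp, the genes of the widest knockout ratios, had too few UMIs to be among the 6. With no UMI minimum, C3 and C4b were higher on cuprizone in wild type, where 2.56% of all genes were higher and 4.23% lower. Likewise C3 and Cfp were then lower in the knockout than in wild type (1.92% of all genes higher, 3.96% lower), and C3 lower than in the heterozygote (1.4% higher, 3.97% lower). No complement gene passed in heterozygote against wild type, against 1.82% of all genes higher and 1.31% lower.

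Of 56 other genes of the pathway on a list by role, 26 were in the table, and 10, 11 and 12 had at least 50 UMIs in the cuprizone, knockout to wild type and heterozygote to wild type comparisons. By the 1.5-fold rule 1, 1 and 1 were higher (2.59%, 1.64% and 1.32% of all genes) and 1, 1 and 0 lower (4.44%, 3.86% and 1.17% of all genes). Against the heterozygote the knockout had 1 higher (Cpn1) and 1 lower (Itgax) of 11, with 1.3% and 3.64% of all genes. Such counts of 1 rest on the single genes named next. Itgax, the alpha chain of complement receptor 4 and also a gene of disease-associated microglia, had 34, 279, 432 and 28 UMIs, or 9.34, 45.2, 65.9 and 4.30 CPM. It was 4.83-fold (3.38 to 7.12) higher on cuprizone in wild type, and in the knockout at 0.0951 (0.0621 to 0.141) of wild type. Itgam, the alpha chain of complement receptor 3, had ratios of 0.859 and 1.09 in those comparisons, and Itgb2, their shared beta chain, 1.07 and 0.783.

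C5ar2, the other receptor of C5a, went from 64.0 CPM on the control diet to 42.4 CPM in wild type on cuprizone, a ratio of 0.663 (0.553 to 0.794), and stood at 43.5 and 48.0 CPM in heterozygote and knockout. Cpn1, a chain of the carboxypeptidase that inactivates C3a and C5a, had 11, 13, 17 and 39 UMIs and a knockout to wild type ratio of 2.84 (1.49 to 5.81). Colec12, a collectin scavenger receptor, had 4, 18, 41 and 5 UMIs and a heterozygote to wild type ratio of 2.15 (1.21 to 3.97). C1qbp, which encodes a C1q-binding protein, had ratios of 1.10, 1.0 and 0.962 in the 3 comparisons. Of the membrane regulators, Cr1l had 0.918, 0.969 and 1.05 and Csmd3 0.753, 1.35 and 1.04. Lrp1 and Calr, which act in uptake of C1q-tagged material, had 0.848, 1.41 and 1.06, and 1.21, 0.836 and 0.947. No gene of classical initiation or the terminal pathway reached 50 UMIs in any of the comparisons, with 2 and 1 in the table.

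**Figure D4:**
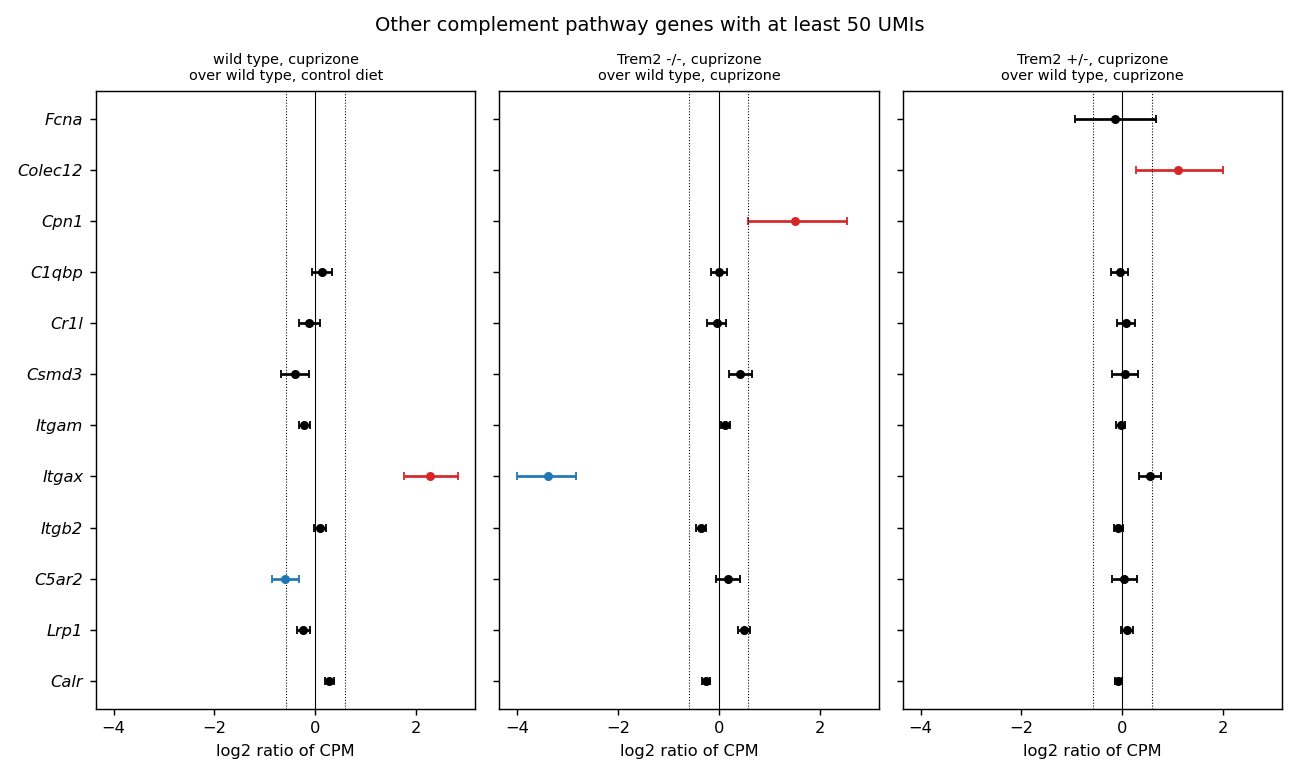
Log2 ratios of CPM with 95% counting intervals for other complement pathway genes with at least 50 UMIs in a comparison, 1 such gene not being shown; red is at least 1.5-fold higher and blue at least 1.5-fold lower with an interval that excludes 0, and dotted lines mark 1.5-fold. Itgax lies at the far right for cuprizone and at the far left for the knockout.

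In the plot of pathway genes the receptor chain Itgax stands far from the rest, and most other genes lie inside the dotted lines.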

How the data were processed

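The deposited table holds raw UMI counts for each gene in each cell. The authors made it with Cell Ranger 2.1.1 and mm10 (submitters' processing notes). They removed low-quality cells before combining the 4 libraries, per the text deposited with the files. The authors' cluster of each cell was used as deposited. The sources used here give neither their clustering parameters nor the gene annotation release. No doublet caller was run, and 1 alternative leaves out the deepest 5% of cells.

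UMIs were summed per library over the pooled or other named cells, divided by the total and scaled to 1000000 (CPM). A library held 4747730 to 7849741 UMIs in 571 to 885 cells. With 1 library a group, no test was run. Ratios have exact conditional binomial (Clopper-Pearson) intervals, CPM exact Poisson intervals and shares of cells exact binomial (Clopper-Pearson) intervals, all at 95% and for counting error only. A gene counts as higher or lower at 1.5-fold or more, where 1 lies outside the interval and the libraries compared hold 50 UMIs or more together. Shares of cells were taken after thinning each cell to 2915 UMIs (the 10th percentile in depth). This leaves out 69, 59, 51 and 80 shallower cells in the libraries from control diet to knockout. A count of 0 allows up to 3 counts.

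The complement genes, the gene and marker lists, the pool of clusters and the alternatives were chosen with earlier results of these data known. The rule for names takes all 9 complement genes and pathway genes past 1.5-fold or with the most UMIs of their list. Itgb2 and Lrp1 are named outside this rule, and some genes within it are not named. The rule also takes the 3 genes of most like pattern for each complement gene with at least 200 UMIs, searched among genes with at least 500 UMIs. Positions are from GENCODE M21 (GRCm38) and promoters from RefSeq (GRCm38.p6). Python 3.11.15, scipy 1.17.1, R 4.3.3 and edgeR 4.0.16 (TMM factors only) were used, and the ratio step was tested on simulated data. Alternatives were TMM scaling, another fold limit, no UMI minimum, every deposited cell, thinned cells, mean per-cell CPM, equal cluster weights, and leaving out cluster 08, the deepest cells or the top cell. Values of 2 genes of the lists are not reported here.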

Additional observations from a re-analysis of the deposited data

How the results depend on the processing

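No paired analysis was possible because each group holds 1 library. Of 285 recomputed ratios of single complement genes, 241 moved by less than their counting interval and 44 moved by more, while 253 kept their sign. The 1 called ratio, C4b on cuprizone in wild type, kept its direction in 8 of 8 recomputed values. The other ratios had no call that could be reversed. In wild type, the count of complement genes higher on cuprizone was 1 as reported and 0 over every deposited cell (3.19% of all genes). It was 2 with no UMI minimum (C3 and C4b). With cells thinned it was 0 (2.52%), but 5 complement genes then had enough UMIs, against 7 as reported. C4b was not among those 5, so that 0 cannot show whether its difference held. The count lower in the knockout than in wild type was 0 as reported, 2 with no minimum (C3 and Cfp), 1 over every cell (C3; 4.19% of all genes) and 1 without cluster 08, by mean per-cell CPM or with equal cluster weights (C4b each time; 3.54%, 5.19% and 4.98% of all genes). The count lower in the heterozygote went from 0 to 1 without cluster 08 (Cfp; 1.08% of all genes). Against the heterozygote, the knockout count went from 0 to 1 over every cell (C3; 3.71% of all genes), with no minimum (C3) and with equal cluster weights (C4b; 5.25%). By mean per-cell CPM and with equal weights the pooled interval was moved to the new ratio, so its width is that of the pooled sums. Fewer cells or UMIs remain after thinning, and the cause of the other changes was not tested. With no minimum, 2.56% of all genes were higher and 4.23% lower on cuprizone. C3, Cfp and Cfb fell under 50 UMIs in at least 1 comparison each, which limits what their counts can show.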
